A study of Homo sapiens with 11 samples.

Results

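In HK2 cells, an immortalized line from the proximal tubule of the human kidney, 9695 stretches of chromatin lay within 2 kb of an annotated transcription start site (TSS) and carried H3K27ac without H3K4me3. To define them, chromosomes 1 to 22 and X of hg19 (GRCh37) were cut into 200-bp bins, and a mark was called on in a bin when peaks covered at least 100 bp of it in each of its 2 replicates. Adjacent bins with H3K27ac on and H3K4me3 off were joined, which gave 29531 regions genome-wide, and the 9695 (32.8%) with their midpoint within 2 kb of a GENCODE 44 TSS were kept. Of these, 4435 (45.7%) touched a bin with H3K4me3 on and are called flanking, 4304 (44.4%) had no such bin within 2 kb and are called isolated, and the remaining 956 (9.86%) are called intermediate. A further 18545 regions, called distal isolated, lay farther than 2 kb from any TSS with no H3K4me3 within 2 kb. The peaks of both marks therefore chose the members, and what is given below on H3K27ac and H3K4me3 describes them without a test.

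All samples came from the same HK2 culture condition, in medium with 10% fetal bovine serum and 0.05% DMSO, with no treated or control group. ChIP-seq peak lists of H3K4me3, H3K27ac and H3K27me3 from cells fixed in 1% formaldehyde had 2 replicates each, and RNA was sequenced in 2 libraries. HiChIP and the ChIP input were not analysed here. The labels do not say whether replicates came from separate cultures, so their spread may be technical. For each mark the list without a replicate number in its label is called replicate 1.

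The replicates differed in the number and width of peaks. H3K4me3 had 29130 peaks in replicate 1 and 73942 in replicate 2, and H3K27ac had 57761 and 38639. Median H3K4me3 peaks were 1197 bp in replicate 1 and 434 bp in replicate 2, and median H3K27ac peaks were 1359 and 658 bp. H3K27ac covered 107 Mb in replicate 1 and 38.9 Mb in replicate 2, and H3K4me3 covered 42.1 and 48.2 Mb. Bins with the mark on in both replicates summed to 38.0 Mb for H3K27ac and 22.6 Mb for H3K4me3. The lists give peak positions only, so read depth and enrichment behind a region could not be computed from them.

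Of 15 proximal tubule markers, 6 reached an FPKM of 1 (fragments per kilobase of transcript, scaled to the number of mapped fragments) in both RNA libraries. PAX8, a transcription factor of the renal epithelium, was at 100 and 104, and GGT1, a brush border enzyme, at 64.1 and 58.1. LRP2, HNF4A and SLC22A6 were at 0 in both, and CUBN was at 0.0334 and 0.0416. None of the 3 matched endothelial, 4 immune or 5 loop and distal nephron markers reached FPKM 1 in both libraries, and of 5 podocyte markers PODXL and SYNPO did.

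H3K27ac is an acetylation of the histone H3 tail found at active promoters and enhancers, where acetyl groups are read by bromodomain proteins. H3K4me3 is deposited around the start sites of active or poised genes, most of all at CpG islands, whereas active enhancers typically carry H3K27ac with little H3K4me3. H3K27me3 is placed by Polycomb complexes at silenced genes and occupies the same lysine as H3K27ac, so a single histone tail cannot hold both.

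The sequences below show 300 bases at the midpoint of the regions on which the description turns, read from the GRCh37 plus strand. Capitals mark matches to the searched motifs on either strand, given here by their letters. AP-1 factors, the FOS and JUN proteins, were searched as TGANTCA, and the GC box, a site of SP and KLF factors, as GGGCGG. For ETS factors the letters were CCGGAAG, and for TEAD factors, the DNA-binding partners of YAP, they were GGAATG. The NF-Y box was searched as CCAAT, the TATA box as TATAAA, and the HNF1 site of tubule-specific genes by its palindrome. No motif contains another. The SPP1 first window and the CAPG window are from isolated regions within 2 kb of the canonical TSS of highly expressed genes. The second SPP1 window is from an isolated region of the same gene, which had no H3K4me3 on in both replicates at any TSS. The last pair comes from the longest flanking regions, at NFKBIZ and DCBLD2. The region of every window was overlapped by an H3K4me3 peak of replicate 1 and by none of replicate 2.
SPP1, isolated, chr4:88895951-88896250: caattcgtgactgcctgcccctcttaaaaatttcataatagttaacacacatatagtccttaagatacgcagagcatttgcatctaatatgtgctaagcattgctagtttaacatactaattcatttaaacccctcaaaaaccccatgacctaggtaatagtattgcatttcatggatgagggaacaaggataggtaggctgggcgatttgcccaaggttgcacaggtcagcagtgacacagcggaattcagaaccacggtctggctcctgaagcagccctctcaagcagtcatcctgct
SPP1, isolated, second region, chr4:88899951-88900250: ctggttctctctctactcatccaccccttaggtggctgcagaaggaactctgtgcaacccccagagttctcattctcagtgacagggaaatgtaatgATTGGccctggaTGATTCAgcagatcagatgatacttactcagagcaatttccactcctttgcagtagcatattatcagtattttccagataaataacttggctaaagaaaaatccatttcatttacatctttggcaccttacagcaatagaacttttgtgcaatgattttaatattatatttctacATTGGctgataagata
CAPG, isolated, chr2:85637051-85637350: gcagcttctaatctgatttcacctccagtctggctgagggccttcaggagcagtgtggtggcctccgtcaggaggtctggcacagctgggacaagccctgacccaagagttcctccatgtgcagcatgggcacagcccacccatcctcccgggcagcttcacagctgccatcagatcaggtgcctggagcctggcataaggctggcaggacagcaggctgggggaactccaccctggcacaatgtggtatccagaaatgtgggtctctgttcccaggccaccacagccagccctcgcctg
NFKBIZ, flanking, chr3:101576851-101577150: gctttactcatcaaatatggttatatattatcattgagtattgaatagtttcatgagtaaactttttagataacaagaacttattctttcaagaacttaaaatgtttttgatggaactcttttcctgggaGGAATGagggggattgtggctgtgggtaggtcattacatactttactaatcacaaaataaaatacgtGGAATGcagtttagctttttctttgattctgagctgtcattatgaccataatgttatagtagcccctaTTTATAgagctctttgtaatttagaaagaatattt
DCBLD2, flanking, chr3:98614051-98614350: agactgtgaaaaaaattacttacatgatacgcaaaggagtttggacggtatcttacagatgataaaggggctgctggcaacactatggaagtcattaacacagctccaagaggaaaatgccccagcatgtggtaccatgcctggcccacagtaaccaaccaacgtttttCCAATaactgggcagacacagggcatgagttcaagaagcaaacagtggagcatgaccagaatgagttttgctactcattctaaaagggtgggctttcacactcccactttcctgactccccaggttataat

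These windows held 44% GC at the first SPP1 region, 38.7% at the second, 61.3% at CAPG, 31% at NFKBIZ and 45.3% at DCBLD2. The second SPP1 window held an AP-1 match and no CpG. The SPP1 first window and the CAPG window held no match to any searched motif. The NFKBIZ window held 2 TEAD matches and lay in an intron.

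The isolated and flanking regions differed in size and place. Isolated regions had a median length of 600 bp (quartiles 400 to 1200 bp), the same median as the distal isolated regions, and summed to 4.51 Mb. Flanking regions had a median of 200 bp (quartiles 200 to 600 bp) and summed to 2.16 Mb, and 51.0% of them were a single bin, against 9.43% of isolated regions. A length of 1 kb or more was reached by 33.9% of isolated, 33.6% of distal isolated and 11.5% of flanking regions. Isolated regions were mostly far from H3K4me3. The nearest on bin lay a median of 33 kb away (quartiles 13.6 to 81.25 kb), and 881 isolated regions (20.5%) were more than 100 kb from any.

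Around the TSS, flanking regions formed shoulders on either side and isolated regions did not. In 2110 flanking regions (47.6%) the H3K4me3 lay downstream only, and these sat at a median of -476 bp, with 89.2% upstream of the TSS. In 2043 (46.1%) it lay upstream only, and these sat at a median of 536 bp, with 15.7% upstream. The other 282 (6.36%) had H3K4me3 on both sides and a median position of -5.5 bp. Isolated regions were near evenly divided, with 2100 upstream and 2203 downstream, and 39.1% had their midpoint within 500 bp of the TSS, against 47.3% of flanking regions. Intermediate regions had a median length of 400 bp, and 61.7% of them lay upstream of the TSS.

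**Figure D1:**
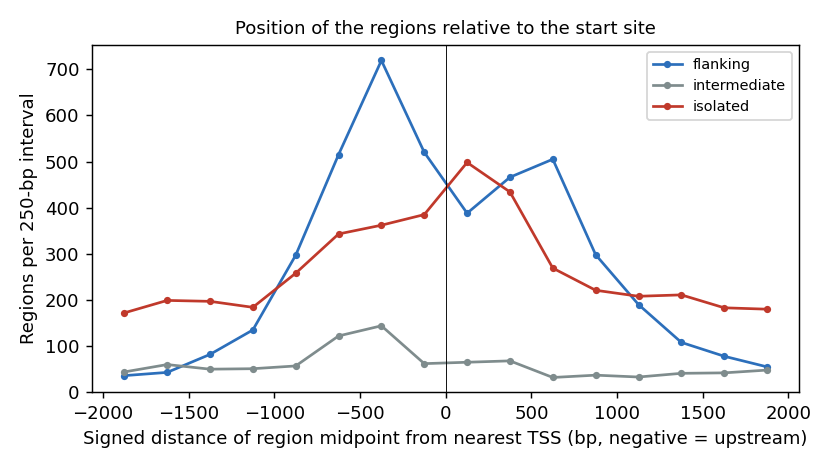
Number of regions per 250-bp interval (y axis) against the signed distance of the region midpoint from the nearest TSS in bp (x axis), with a line per class. Flanking regions peak on both sides of the start site and dip next to it, while isolated regions are most numerous just downstream of it.

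The limits of the rule cut through a continuous range. The H3K4me3-on bin was 2000 bp away for 30 intermediate regions, of median length 600 bp, and 2200 bp away for 22 isolated regions, of median length 500 bp. The last 200 bp inside the limit of 2 kb from a TSS held the midpoints of 415 members and the first 200 bp outside it those of 394 other regions, both of median length 600 bp.

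H3K4me3 called in replicate 1 alone was frequent in the regions. At least 1 H3K4me3 peak of replicate 1 overlapped 1306 isolated regions (30.3%), whereas a peak of replicate 2 overlapped 74 (1.72%), and 2936 (68.2%) met no H3K4me3 peak in either list. Among flanking regions 4386 (98.9%) met a replicate 1 peak and 2646 (59.7%) a replicate 2 peak. Of their bins, 80.6% had H3K4me3 on in replicate 1 and 0.909% in replicate 2. For those 80.6% the off state rested on replicate 2, whose H3K4me3 peaks were narrower, and the part of peak width in this was not tested. When H3K4me3 had to be absent from both lists, 2680 flanking and 2244 isolated regions were left. Intermediate regions lay between, with 672 (70.3%) that met a replicate 1 peak and 25 (2.62%) a replicate 2 peak. In distal isolated regions, a replicate 1 peak overlapped 21.7% and no peak 77.6%.

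**Figure D2:**
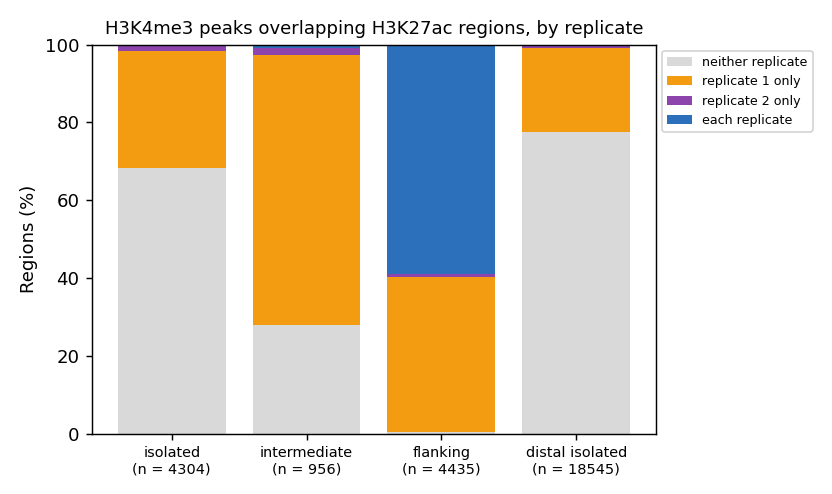
Percentage of regions (y axis) in each class (x axis, with the number of regions) that overlapped an H3K4me3 peak in neither replicate, in replicate 1 only, in replicate 2 only or in each. Overlap with replicate 1 only was seen in 1294 isolated and 1770 flanking regions, and with each replicate in 12 and 2616.

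The same held around the start sites themselves. In the bin 200 bp downstream of the 3516 TSS nearest to isolated regions, H3K27ac was on at 76.0% in replicate 1 and 48.5% in replicate 2. H3K4me3 was on there at 19.6% in replicate 1 and 0.967% in replicate 2. At the 4231 TSS nearest to flanking regions, the H3K4me3 shares in this bin were 94.5% and 76.6%.

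**Figure D3:**
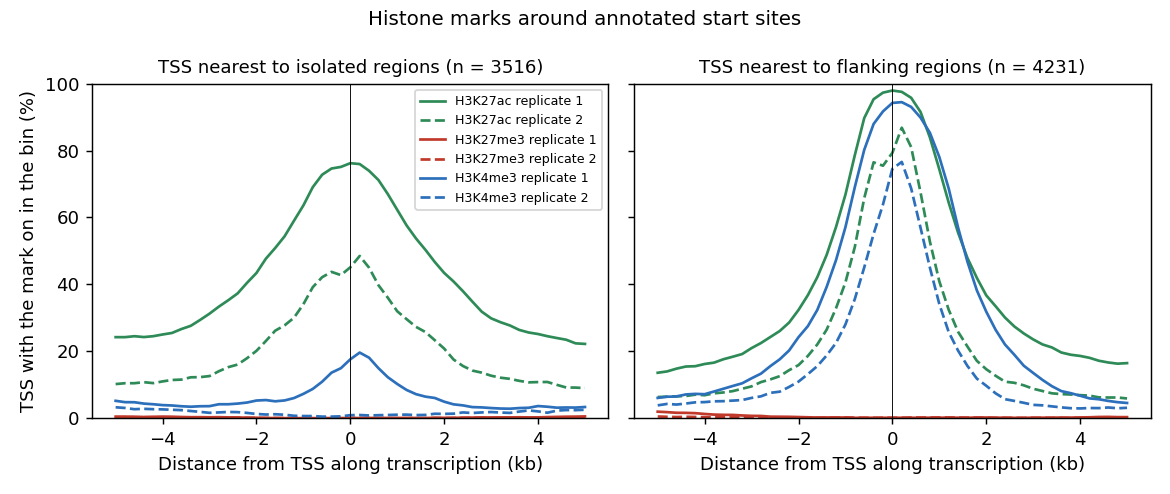
Percentage of TSS with the mark on in a bin (y axis) against distance from the TSS along transcription in kb (x axis), for TSS nearest to isolated regions (left) and to flanking regions (right), with replicate 1 as solid and replicate 2 as dashed lines. H3K27ac is centred on the start sites in both panels, H3K4me3 reaches 19.6% and 0.967% on the left in the bin at 200 bp, and H3K27me3 stays near 0.

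Isolated regions lay at protein-coding genes less often, and at long non-coding genes more often, than flanking regions. The nearest TSS belonged to a protein-coding gene in 3391 flanking regions (76.5%) and in 2397 isolated regions (55.7%), and to a long non-coding RNA (lncRNA) in 890 (20.1%) and 1271 (29.5%). Of all 219838 distinct annotated TSS, 146028 were of protein-coding genes and 47407 of lncRNAs. The protein-coding share was thus lower, and the lncRNA share higher, in isolated regions than among all TSS. Flanking regions went the other way. The nearest TSS was the Ensembl canonical one, the start of a gene's representative transcript, in 31.6% of flanking and 29.1% of isolated regions. This compares with 24.7% of all distinct TSS. Among isolated regions this share was 143 of 2397 (5.97%) at protein-coding genes and 773 of 1271 (60.8%) at lncRNAs, against 13.5% and 39.2% of all distinct TSS of these gene types. The midpoint lay in an intron for 65.9% of isolated and 51.7% of flanking regions, and between genes for 13.3% and 25.3%. For distal isolated regions these shares were 64.6% and 31.6%, so the intron share was close in both isolated classes.

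Transcripts from the start sites beside isolated regions made up little of their gene's RNA. For 1888 isolated regions at protein-coding genes with an FPKM of at least 1, the transcripts starting within 2 kb of the region contributed a median of 2.08% of the gene's FPKM (quartiles 0.479 to 11.8%), and 686 (36.3%) contributed under 1%. Where the canonical TSS was nearest, in 71 regions, the median was 97.5%, and elsewhere it was 1.93%. Transcripts of a gene share exons, so this division rests on how StringTie apportioned the reads. The share was not computed for flanking regions or for other annotated start sites. Genes with an isolated region had a median of 10 distinct TSS, so whether a low share is particular to these start sites was not tested.

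Genes nearest to either kind of region had a higher median expression than all protein-coding genes. An isolated region was nearest to a TSS of 1464 protein-coding genes with an RNA value (7.47% of 19600), a flanking region to 2763 (14.1%) and an intermediate region to 630 (3.21%). The median FPKM of genes with an isolated region was 10.05 in library 1 and 10.3 in library 2, that of genes with a flanking region 14.3 and 14.3, and the mean of both libraries over all protein-coding genes had a median of 3.35. Both libraries put 80.3% of genes with an isolated region and 94.8% of genes with a flanking region at FPKM 1 or above, against 58.9% of all. On the log2(FPKM + 1) scale, genes with an isolated region were on average lower than genes with a flanking region by a difference of -0.77 in each library, and 347 genes counted in both groups. Genes with an intermediate region had medians of 17.6 and 16.8 FPKM. With 1 condition and genes as the only units, the difference was not tested. H3K4me3 was on at a TSS of 77.4% of genes with an isolated region and, as the rule sets, of nearly all (99.96%) with a flanking region. Among genes with H3K4me3 on at a TSS the difference was -0.16 in each library, with medians of 14.1 and 14.4 FPKM. All 347 genes of both groups had H3K4me3 on at a TSS and stayed on both sides of this comparison. Their median FPKM was 19.2 in library 1 and 19.3 in library 2. Their part in the smaller difference was not tested. The difference was -2.39 with canonical TSS alone and -0.445 where H3K4me3 had to be absent from both lists.

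Genes near these regions also had more annotated start sites, with a median of 10 distinct TSS for genes with an isolated region and 8 with a flanking region, against 5 over all protein-coding genes. A gene with more start sites has more chances to lie near a region, and the part of this in the expression values was not tested. The 197 genes with 3 or more isolated regions had a median FPKM of 16.1, the 391 with 2 a median of 11.2 and the 876 with 1 a median of 8.78.

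The isolated genes split by whether H3K4me3 was on at a TSS. In 1133 of the 1464, a bin with H3K4me3 on lay within 2 kb of a TSS of the gene, and their median FPKM was 13.9 in library 1 and 14.1 in library 2. The 9990 genes that had H3K4me3 at a TSS but no isolated, flanking or intermediate region were at 6.29 and 6.45. All 12710 genes with H3K4me3 at a TSS and no isolated region, which include genes with a flanking or intermediate region, were at 7.69 and 7.76. H3K4me3 was on near a TSS of 70.6% of all protein-coding genes. In the other 331, no TSS had H3K4me3 on, and the median FPKM was 0.514 and 0.510, but 119 of them (36.0%) reached FPKM 1 in both libraries. Among the 5426 genes with neither H3K4me3 at a TSS nor an isolated region the medians were 0 and 0, and 3.69% reached FPKM 1. Nearly all of these lacked H3K27ac as well, since 5352 protein-coding genes had neither mark on near a TSS. An isolated region carries H3K27ac by the rule, so this comparison is also one of genes with and without H3K27ac.

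**Figure D4:**
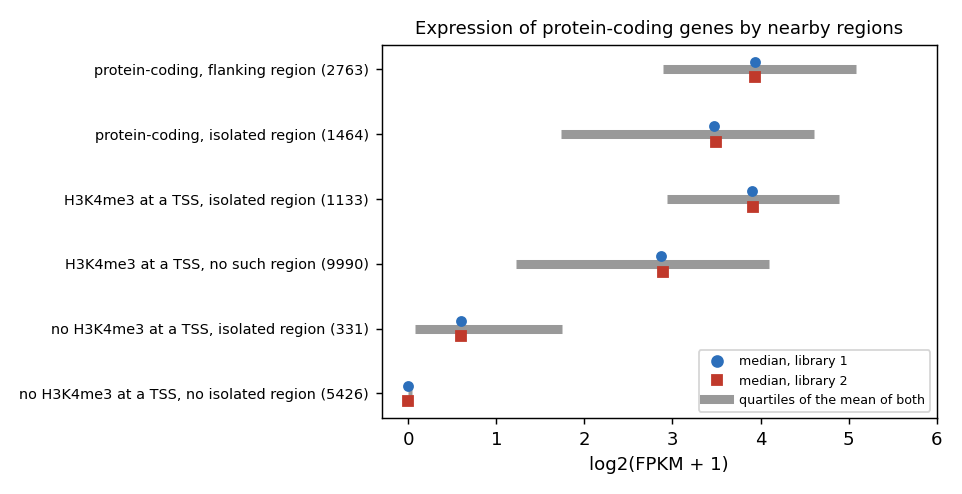
Expression on the log2(FPKM + 1) scale (x axis) of protein-coding genes grouped by region and by H3K4me3 at a TSS (y axis, with the number of genes). Points are the medians in each library and bars the quartiles over genes of the mean of both libraries. The medians of library 1 and library 2 nearly coincide in every group. Genes with an isolated region sit to the left of genes with a flanking region. With H3K4me3 on at a TSS, they sit to the right of genes with no isolated, flanking or intermediate region. Without H3K4me3, they sit to the right of genes with no isolated region. Nearly all genes with neither H3K4me3 nor an isolated region also lacked H3K27ac near a TSS.

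For the 331 genes without H3K4me3 in both replicates, the single lists were not empty. Replicate 1 had H3K4me3 on near a TSS of 180 of them (54.4%), which had a median FPKM of 1.15, and 48.9% reached FPKM 1. The 151 without it in replicate 1 had a median FPKM of 0.196, and 20.5% reached FPKM 1. Of the 5426 genes with neither H3K4me3 nor an isolated region, replicate 1 had H3K4me3 on at 281 (5.18%), which had a median FPKM of 0.126, and 21.7% reached FPKM 1. Only 101 of the 331 had no H3K4me3-on bin in either replicate. Over all protein-coding genes with an isolated region, the 601 with a region that met a replicate 1 H3K4me3 peak had a median FPKM of 9.32, and the 1062 with a region that met none in either list had 10.7, with genes of several regions counted in both.

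Genes with an isolated region within 2 kb of their canonical TSS were mostly expressed at a low level. The 227 protein-coding ones had a median FPKM of 1.31 in library 1 and 1.52 in library 2, and 52.4% reached FPKM 1 in each. The 8 highest in FPKM were SPP1, TAGLN, CAPG, HAVCR1, SUN1, MACF1, CXCL8 and NNMT. The isolated region of each was overlapped by an H3K4me3 peak of replicate 1, and none by a peak of replicate 2, whose nearest peaks were 1.38 to 95.9 kb away. SPP1, which encodes the secreted phosphoprotein osteopontin, had an FPKM of 578 in library 1 and 613 in library 2. Its region at chr4:88895401-88896800 lay in a replicate 1 H3K27ac peak, a replicate 1 H3K4me3 peak began at 88896197, and the nearest replicate 2 H3K4me3 peak was 31319 bp away.

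TAGLN, the actin-binding protein transgelin of contractile cells, was at 139 and 141 FPKM. Its 600-bp region at chr11:117069201-117069800 lay upstream of the canonical TSS, at -585 bp, and the nearest replicate 2 H3K4me3 peak was 18666 bp away. HAVCR1, also known as KIM-1, is a membrane receptor that rises in injured proximal tubules. It was at 84.3 and 84.7 FPKM, with a region at chr5:156483801-156487000 centred 6 bp from a TSS and 42494 bp from a replicate 2 H3K4me3 peak.

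CAPG, an actin filament capping protein, was at 94.2 and 80.1 FPKM, and CXCL8, the neutrophil chemokine, at 62.9 and 56.9. NNMT, which methylates nicotinamide, was at 57.8 and 56.5 FPKM with a 6600-bp region. SUN1, a nuclear envelope protein, was at 59.9 and 62.0, and MACF1, a linker of actin and microtubules, at 52.0 and 68.7. Library values of each gene were close, with MACF1 and CAPG the least so. These are values of whole genes. Transcripts starting near the region gave 25.3% of the FPKM of CAPG, 18.7% of SUN1 and 0.678% of MACF1, and these 3 genes had H3K4me3 on at a TSS.

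Genes with an isolated region and no H3K4me3 at any TSS in both replicates were led by the same SPP1, TAGLN, HAVCR1, CXCL8 and NNMT, followed by SLN, ZBTB38 and CD74. SLN encodes sarcolipin, an inhibitor of the sarcoplasmic calcium pump, and was at 53.8 and 56.7 FPKM. ZBTB38, a zinc finger protein that binds methylated DNA, was at 51.7 and 49.8, and CD74, the invariant chain of MHC class II, at 43.5 and 45.1. All 8 regions overlapped a replicate 1 H3K4me3 peak, and the nearest replicate 2 peaks were 13.3 to 117 kb away.

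Of the genes without H3K4me3 near any TSS in either replicate, chosen after the values were seen, the highest were KRTAP2-3, ITGB6 and CLDN2. KRTAP2-3, a keratin-associated protein gene, was at 15.6 and 13.8 FPKM, and its 5000-bp region at chr17:39214801-39219800 lay 154131 bp from a replicate 1 H3K4me3 peak and 3478 bp from a replicate 2 peak. It belongs to a family of near-identical genes, so reads may be shared with its copies. ITGB6, the beta subunit of an epithelial integrin that activates TGF-beta, was at 11.6 and 12.9, of which transcripts starting near the region gave 0.692%. CLDN2, the claudin that forms cation pores in proximal tubule junctions, was at 8.44 and 7.82 with 4 isolated regions, of which the one at chrX:106140601-106143600 was 2200 bp from a replicate 1 peak and 93930 bp from a replicate 2 peak.

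Long stretches were seen in each class. The longest isolated region, of 27000 bp, lay at chr3:101645401-101672400 beside the lncRNA gene RDUR, which was at 0 and 0.443 FPKM. The next 4 lay at EVC, a component of the primary cilium (14400 bp), the lncRNA ENSG00000228509 (12200 bp), DNM2, a dynamin of endocytosis (11600 bp), and SMAD3, a transducer of TGF-beta signals (10000 bp). EVC was at 36.5 and 42.8 FPKM and DNM2 at 70.8 and 70.1. Each of the 5 was overlapped by an H3K4me3 peak of replicate 1 and by none of replicate 2.

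The longest flanking region, of 15200 bp, lay at chr3:101569401-101584600 on NFKBIZ, a nuclear regulator of NF-kB responses, at 83.7 and 109 FPKM. DCBLD2, a membrane receptor, had one of 10800 bp and was at 342 and 360 FPKM. PLK2, a stress-responsive kinase, had one of 6600 bp and was at 133 and 137. ENSG00000289466, annotated as a gene of unsettled type, had one of 9600 bp and had no RNA value. MALAT1, a nuclear lncRNA, had one of 5600 bp and was at 21.4 and 24.3. Summed over a gene, flanking length was highest at NFKBIZ (19000 bp in 4 regions), DCBLD2, PLK2 (7800 bp in 2), ZNF608 (6800 bp in 5) and ALPK2 (6200 bp in 2).

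Most genes had few isolated regions. Of 2903 genes of every type, 1913 had 1 and 259 had at least 3. SMAD3 had the most, with 12, followed by HM13, MYH9, KSR1 and PPARG with 7 each, and these were picked out after the counts were seen. SMAD3 was at 37.8 and 37.0 FPKM and had 18 distinct TSS.

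The lists of related genes were read against the 7.47% of protein-coding genes with an isolated region and the 14.1% with a flanking region. Of 116 list genes, 35 had 85 isolated regions in all, 26 of these genes with H3K4me3 on at a TSS and 9 without. The median FPKM of each list is given beside its count, against 3.35 over all protein-coding genes, since genes near a region had higher medians. FPKM values in the lists are of whole genes, and 69 of the 85 regions had their midpoint in an intron. Transcripts starting near an isolated region gave 0.0141% of the FPKM of FN1, 0.181% of CDH2 and 0.797% of ACTN4. They gave 98.8% of the FPKM of LAMB3 and 100% of ANKRD1.

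Adhesion and junction genes had an isolated region in 9 of 20 and a flanking region in 5, with a median FPKM of 20.5. ITGB1, the beta chain shared by matrix-binding integrins, had 3 isolated regions and was at 340 and 308 FPKM. CDH2, which encodes N-cadherin, had 3 and was at 59.3 and 59.7. LAMB3, a chain of laminin-332, had 1 isolated region, no TSS with H3K4me3 on in both replicates, and 12.7 and 11.8 FPKM. ITGA3, ITGA5, LAMA3, TJP1 and CLDN2 were also among them.

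Actin cytoskeleton genes had an isolated region in 7 of 18 and a flanking region in 10, with a median FPKM of 153. MYH9, the heavy chain of non-muscle myosin, had 7 isolated regions and was at 568 and 559 FPKM. ACTN1 and ACTN4, which cross-link actin filaments, had 3 and 2, at 169 and 163 FPKM and at 226 and 237 FPKM. LIMA1 had 3 and CALD1 had 2, at 8.29 and 14.7 FPKM and at 18.5 and 23.7 FPKM. ENAH had 2 and was at 37.3 FPKM in library 1 and 121 in library 2, so its level differed more between libraries than that of the other actin genes named.

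Genes of TGF-beta and YAP signalling and the matrix had an isolated region in 6 of 16 and a flanking region in 7, with a median FPKM of 80.0. FN1, which encodes fibronectin, had 2 isolated regions and was at 2333 and 2343 FPKM. ANKRD1, a target of YAP, had 2, no TSS with H3K4me3 on in both replicates, and 25.1 and 27.1 FPKM. A replicate 1 H3K4me3 peak at chr10:92678796-92681420 overlapped each of its regions. SMAD7, an inhibitor of TGF-beta receptors, had 2 and was at 12.6 and 13.1. AMOTL2 had 3 and AXL had 2, and SMAD3 is given above.

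Injury and repair genes had an isolated region in 8 of 14 and a flanking region in 3, with a median FPKM of 57.04. ANXA2, a calcium-dependent membrane-binding protein, had 6 and was at 511 and 507 FPKM. KRT8, an epithelial keratin, had 2 and was at 179 and 184. SPP1 had 3 and HAVCR1 had 2. VCAM1 and LCN2, which mark inflamed tubules, had 1 each and no TSS with H3K4me3 on in both replicates. They were at 0.475 and 0.534 FPKM and at 0.443 and 0.319 FPKM. A replicate 2 H3K4me3 peak overlapped the LCN2 region. The remaining members were CD44 and KRT7, with 1 each.

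Early response genes had an isolated region in 1 of 16, the anti-apoptotic MCL1, and a flanking region in 3, with a median FPKM of 26.6. Proximal tubule markers had one in 3 of 15 and a flanking region in 4, with a median FPKM of 0.163. PAX8 had 3 isolated regions. SLC34A1, the phosphate transporter, had 2 and was at 0.0540 and 0.164 FPKM, and SLC5A2, the glucose transporter SGLT2, had 1 and was at 1.56 and 2.36. Of podocyte markers SYNPO had 1, and no endothelial, immune, loop or distal marker had a member of any class.

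The lncRNA genes nearest to isolated regions were mostly near 0. The 726 lncRNA genes with an isolated region and an RNA value had a median FPKM of 0.0231, and 8.13% reached FPKM 1 in both libraries. The 594 with a flanking region had a median of 0.291 with 23.4% reaching FPKM 1, and the 12735 with no such region had a median of 0 with 3.86%. GAS5, a host gene of small nucleolar RNAs, was highest at 134 and 127 FPKM, followed by LINC00958 at 19.2 and 16.1 and UCA1 at 17.7 and 16.4. LINC00511 was at 15.4 and 18.7 and MIR4435-2HG at 17.2 and 15.2. Transcripts starting near the region gave 97.5% of the FPKM of LINC00958, but 0.807% of GAS5, 5.88% of UCA1 and 6.77% of LINC00511.

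H3K27me3 was nearly absent from the regions. It was on in both replicates in at least 1 bin of 5 of the 9695 members (0.0516%), and it held 0.0356% of their bases, against 0.635% of all bins in the genome. The isolated regions held 1 of the 5, beside RNU1-92P, a pseudogene of a spliceosomal RNA that was at 0 FPKM in both libraries. The flanking regions held the other 4, of which CCND1, the G1 cyclin, was at 16.9 and 16.4 FPKM. SNTB1, a syntrophin, was at 2.68 and 2.94, and the lncRNAs ENSG00000272953 and LINC03073 were under FPKM 1.

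By sequence, isolated regions resembled distal isolated regions more than stretches with both marks on. Both isolated classes were chosen for absent H3K4me3 and the stretches with both marks for its presence. The part of this choice in the sequence values was not tested. In 400-bp windows on the midpoint, the median CpG ratio, the observed CpG count over that given by the C and G content, was 0.221 in isolated, 0.192 in distal isolated and 0.429 in flanking regions. It was 0.781 where both marks were on and 0.414 around all annotated TSS. A ratio of at least 0.6 was reached by 2.30% of isolated, 1.24% of distal isolated, 12.3% of intermediate and 23.8% of flanking windows, against 80.2% with both marks on and 38.9% around all TSS. Median GC content was 47% in isolated and 45.25% in flanking windows, and 66% with both marks on. Windows of the same class can overlap the same gene, so no test was made.

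Between isolated and flanking windows, the shares with AP-1 and GC box matches differed by more percentage points than those of the other motifs. The AP-1 letters were in 20.7% of isolated and 21.0% of distal isolated windows, in 12.1% of flanking windows and in 5.04% of windows with both marks on, against 9.23% around all TSS. The GC box was in 10.2%, 7.28%, 19.2% and 68.8% of these classes, against 39.4% around all TSS. ETS letters were in 1.97% of isolated, 3.77% of flanking and 12.4% of both-mark windows. TEAD letters were in 23.95% of isolated, 21.4% of flanking and 14.7% of both-mark windows, against 17.9% around all TSS. TATA letters were in 21.98%, 23.9% and 3.99% of them, and NF-Y letters in 38.0%, 40.2% and 23.2%. The HNF1 site was in none of the isolated windows. It was rare in every class, with 0.0108% of distal isolated, 0.0225% of flanking and 0.00364% of all TSS windows, so its absence says little. Motif letters can follow base composition, and the part of base composition in these shares was not tested.

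**Figure D5:**
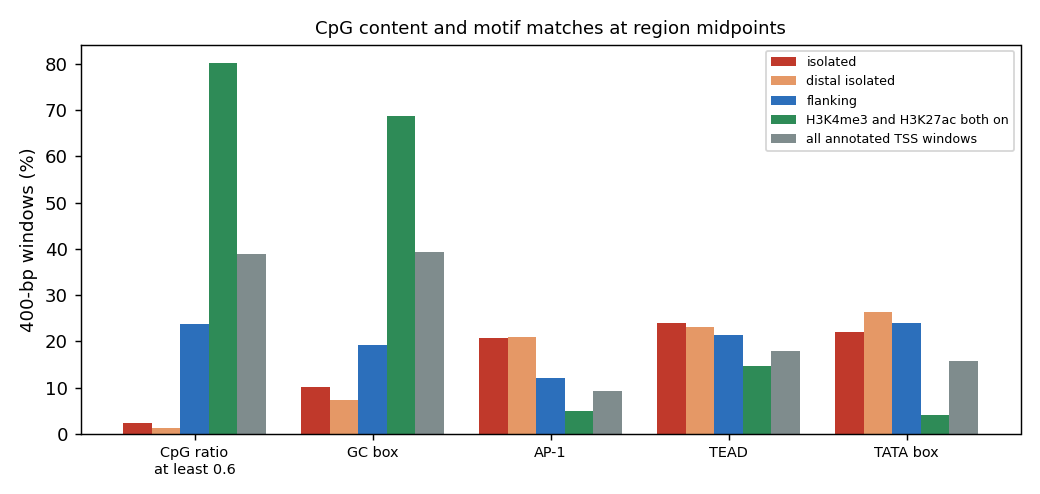
Percentage of 400-bp windows (y axis) with a CpG ratio of at least 0.6 or a motif match (x axis), for windows on the midpoints of isolated, distal isolated and flanking regions, on bins with both marks, and on all annotated TSS. Isolated windows lie closer to distal isolated windows than to windows with both marks in every group, and windows with both marks hold the highest shares of CpG ratio and GC box and the lowest of AP-1, TEAD and TATA box.

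A 400-bp window on a flanking region of a single bin also takes in the adjoining H3K4me3-on sequence that defined its class. In the 2173 flanking regions long enough to hold the whole window, 17.2% reached a CpG ratio of 0.6, 16.5% held a GC box and 14.2% held AP-1 letters. The same shares were 2.33%, 10.03% and 21.5% in the 3898 isolated regions of that length. Of flanking regions holding the window, the 154 with H3K4me3 on both sides had a CpG ratio of at least 0.6 in 27.9% and a GC box in 27.9%, and the 2019 with it on a single side in 16.4% and 15.6%. These windows were chosen after the values were seen.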

How the data were processed

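HK2 cells were profiled by ChIP-seq of 3 histone marks, with 2 replicates each, and by 2 RNA-seq libraries. Per the study's methods, ChIP reads were aligned to hg19 with Bowtie2 and uniquely mapped reads were passed to MACS2. The deposited peak lists hold positions only, with no score or p-value, so thresholds cannot be varied. For RNA, the methods name HISAT2 and hg19, and the deposited StringTie (1.3.3, per the labels) output gives FPKM and TPM per transcript. That output holds GENCODE 27 identifiers and transcript positions of a later build than hg19, so the build of the RNA alignment is unclear and genes were joined by Ensembl ID, never by position, to GENCODE 44 on GRCh37, which gave the start sites. Gene FPKM is the sum over its transcripts. StringTie apportions reads among transcripts that share exons. The files hold no read or fragment counts, so no depth or counting interval could be computed from them.

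Bins, regions, classes, motif matches and expression groups were computed in Python 3.11.15 with numpy 2.4.6, pandas 2.3.3, pysam 0.24.0 and matplotlib 3.10.9, with a pseudocount of 1 for log2(FPKM + 1). The region code was tested on simulated data. Of 63826 annotated genes 55316 matched an RNA identifier, 19600 of 20098 protein-coding ones among them. Since there was 1 condition and the marks chose the regions, values are given per replicate or library without a test.

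The members, gene lists and named genes were chosen with earlier results of these data known. Named by rule were the 8 genes of highest FPKM with an isolated region within 2 kb of their canonical TSS, the 8 with an isolated region and no H3K4me3 on at any TSS, the 5 longest regions of the isolated and flanking classes, the 5 genes of largest summed flanking length, list genes with an isolated region, the 5 highest lncRNAs and regions with H3K27me3. Sequences are from the first of these, leaving out untranslated regions. Some genes and sequences that the rule names are not reported here. Alternatives changed the bin cover, replicates, TSS set, windows, minimum length, pseudocount and unit.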

Additional observations from a re-analysis of the deposited data

How the results depend on the processing

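The number of regions depends on how H3K4me3 is called. Leaving out 1 replicate of each mark gave 4538 to 7845 flanking regions, with 7845 without replicate 2, against 4435. It gave 4002 to 5575 isolated regions against 4304. Calling H3K4me3 off only where neither replicate had it gave 2680 flanking and 2244 isolated regions. A minimum length of 400 bp left 2173 flanking regions. Isolated regions numbered 1684 with canonical TSS, 2498 with protein-coding TSS and 2771 within 1 kb of a TSS.

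The difference in mean log2(FPKM + 1) between genes of isolated and flanking regions was below 0 under every alternative run. It ranged from -0.746 to -0.493 with a ChIP-seq replicate left out and from -0.774 to -0.770 with an RNA library left out, against -0.773. It was -0.445 with H3K4me3 absent from both lists, -0.790 with any overlap, -0.814 with whole bins covered, -2.39 with canonical TSS, -0.799 with protein-coding TSS, -0.719 within 1 kb, -0.945 with a minimum length of 400 bp and -0.832 with isolation by 5 kb. It was -1.10 with a pseudocount of 0.1, -0.538 with genes of FPKM at least 0.1, -0.936 in TPM, -1.43 with genes of every type and -1.09 without genes in both groups. Among genes with H3K4me3 on at a TSS, an alternative chosen after seeing the data, it was -0.161, with the genes in both groups kept. The spread between libraries is so small that nearly every alternative moved the value by more than it.

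Isolated regions with H3K27me3 on numbered 2 to 9 with a replicate left out, against 1, and 0 with H3K4me3 absent from both lists, whole bins, canonical TSS or protein-coding TSS. The cause of these shifts was not tested. No paired analysis was possible because no result comes from a test.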
